A study of Rattus norvegicus with 16 samples.

Results

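Deup1, Drc12, Tmem212 and Foxj1 are genes of multiciliated ependymal cells, and their transcripts were followed in rat hippocampus as a check on how much ventricle wall the tissue held. The members were named with earlier results from these arrays in view and were then found by matching the RefSeq name of each probe target to a gene symbol. Of the 4 genes named, 3 had probes: Deup1 and Drc12 have 1 probe each and Tmem212 has 2, which makes 4 probes among 24684, and 3 genes among the 13903 symbols matched. No probe matched Foxj1, so its level is not analysed here.

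The tissue was dissected hippocampus of male Sprague-Dawley rats bought at 250 g, with no age stated. The depression-susceptible, anxiety-susceptible and insusceptible groups had lived through 8 weeks of chronic mild stress (CMS), in which mild stressors are varied over time, and control rats had no CMS. Each of the 4 groups has 4 single-colour arrays, on which cRNA labelled with the dye Cy3 was hybridised to probes for messenger and long non-coding RNAs. The labels state neither the sorting of stressed rats nor if different animals gave the RNA of different arrays.

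Pairs of arrays with the same group and slide differed by about the noise between replicate spots or less (ratio of the differences to that noise 0.732 to 1.048 over 16 pairs, median 0.852, above 1 in 2 pairs of insusceptible arrays), against ratios of 2.01 to 2.46 for arrays of a group on different slides. They were therefore averaged, which leaves 6 samples: 2 depression-susceptible (slides 1 and 2), 1 anxiety-susceptible (slide 3), 1 insusceptible (slide 4) and 2 control (slides 1 and 2). Slides 1 and 2 were scanned on day 1, slides 3 and 4 on day 2. Group and slide cannot be told apart for anxiety-susceptible and insusceptible rats, and their single samples are assumed to vary like the others. In their comparisons with control and with depression-susceptible rats, group also cannot be told apart from scan day. Errors and p-values measure the spread between the slides of day 1, not between days or between animals. Levels are log2 processed signal minus the array's 75th percentile of it, called scaled log2 signal. That percentile was 2869 to 3348 on depression-susceptible, 1083 to 1259 on anxiety-susceptible, 1228 to 1256 on insusceptible and 2863 to 3074 on control arrays, and 63.3% to 76.2% of probes were well above background.

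Ependymal cells line the brain ventricles, including the lateral ventricle beside the hippocampus, and beat tufts of motile cilia that move cerebrospinal fluid. Each cilium is built on an axoneme of microtubule doublets with dynein arms as motors, a nexin-dynein regulatory complex and radial spokes that control them, and a central pair of microtubules. The transcription factor Foxj1 switches on this set of genes together with factors of the Rfx family, which bind the X-box motif. Epithelial cells of the choroid plexus, which hangs in the same ventricles, also carry cilia and transcribe part of the set.

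The promoters of the 3 measured genes are shown because Rfx factors are known to act through X-box sequences near the start of cilia genes. Each is 300 bases, from 250 before to 50 after the transcription start, from RefSeq on build GRCr8, written along the gene's strand. The Deup1 window lies at chr8:20723536-20723835 on the minus strand, that of Drc12 at chr8:53474409-53474708 on the plus strand and that of Tmem212 at chr2:112741819-112742118 on the minus strand. Capitals mark letters that make up only a part of an X-box, searched as GTTGCC and GTTACC on both strands. The whole X-box was not searched for, so the capitals are not shown to be X-boxes.
Deup1: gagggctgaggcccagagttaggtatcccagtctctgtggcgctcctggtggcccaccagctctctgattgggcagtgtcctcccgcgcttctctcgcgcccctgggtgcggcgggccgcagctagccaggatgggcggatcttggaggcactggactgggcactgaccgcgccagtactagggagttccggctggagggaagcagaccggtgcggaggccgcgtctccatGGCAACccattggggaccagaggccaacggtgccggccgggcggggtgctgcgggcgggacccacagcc
Drc12: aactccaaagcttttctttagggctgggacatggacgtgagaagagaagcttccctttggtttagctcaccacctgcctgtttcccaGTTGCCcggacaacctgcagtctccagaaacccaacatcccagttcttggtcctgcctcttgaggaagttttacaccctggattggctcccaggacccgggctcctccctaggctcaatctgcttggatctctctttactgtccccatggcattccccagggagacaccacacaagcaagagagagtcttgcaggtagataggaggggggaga
Tmem212: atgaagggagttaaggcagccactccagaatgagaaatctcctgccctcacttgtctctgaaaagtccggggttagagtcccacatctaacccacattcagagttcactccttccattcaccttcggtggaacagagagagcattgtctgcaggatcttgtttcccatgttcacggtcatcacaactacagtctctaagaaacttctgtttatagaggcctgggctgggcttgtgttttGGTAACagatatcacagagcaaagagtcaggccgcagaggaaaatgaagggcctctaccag
In Deup1 the letters GGCAAC, which read GTTGCC on the other strand, stand at positions -19 to -14 from the start. In Drc12 GTTGCC stands at -163 to -158, and in Tmem212 GGTAAC, which is GTTACC on the other strand, stands at -11 to -6. Either of these X-box parts was present in 18.4% of 27457 rat promoters of this length, 1 per gene. Either was present in 31 of the 66 promoters found for other motile cilia genes tested here (47.0%). GTTGCC alone was in 12.2% and GTTACC in 7.4% of all promoters. The letters GTAAACA, a core that forkhead factors such as Foxj1 bind, were in none of the 3 windows and in 3.8% of all. A match of letters is a description and not evidence of binding.

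**Figure D1:**
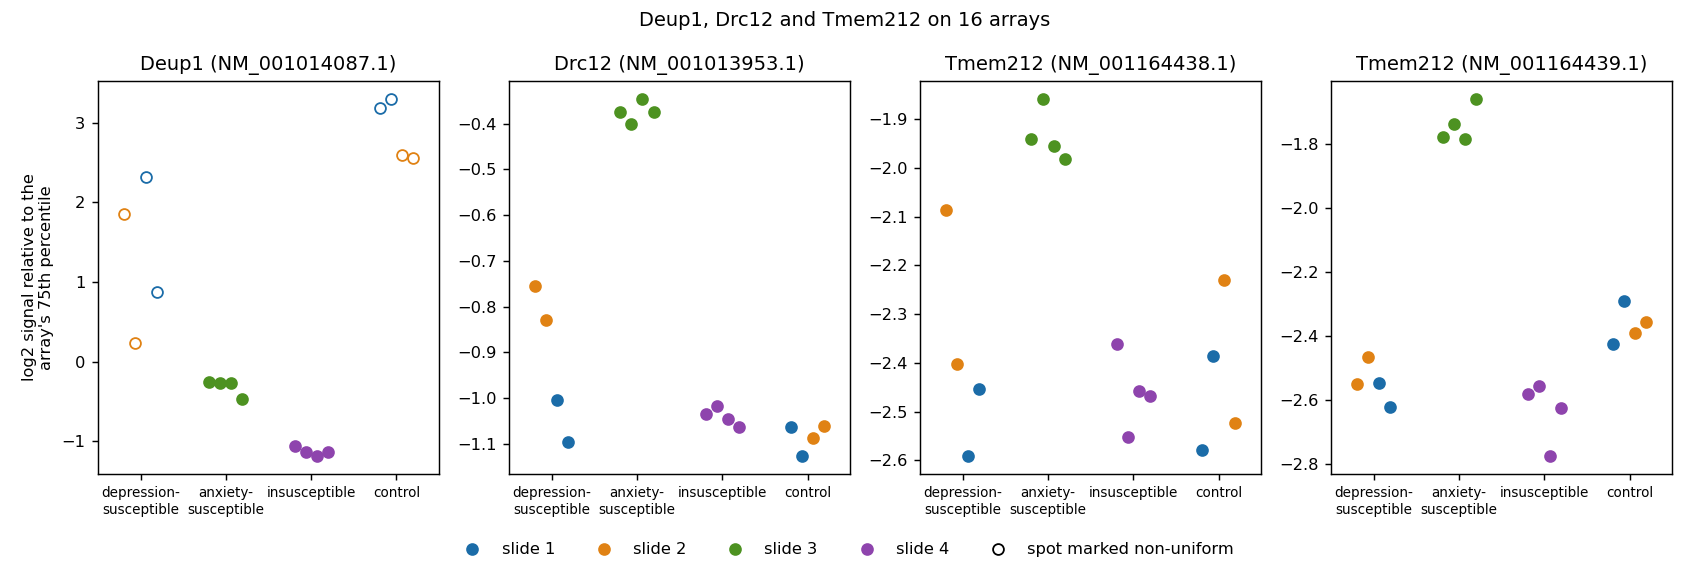
Scaled log2 signal (log2 processed signal minus the array's 75th percentile) of the 4 probes for Deup1, Drc12 and Tmem212 on the 16 arrays, 4 points per group coloured by slide; open circles are spots marked non-uniform. Anxiety-susceptible arrays are the highest for Drc12 (-0.40 to -0.35) and for both Tmem212 probes, and all Deup1 spots of depression-susceptible and control arrays are marked.

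The 3 measured genes did not share 1 pattern. Drc12 and Tmem212 had their highest levels on the anxiety-susceptible arrays, with the other groups close together, while Deup1 could be compared only between anxiety-susceptible and insusceptible rats. Because the members were proposed from these arrays, their values are given as a description without a test.

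Drc12 encodes a component of the nexin-dynein regulatory complex and marks ependymal cells in mouse brain. Its scaled log2 signal was -0.76, -0.83, -1.0 and -1.1 on depression-susceptible arrays 1 to 4. It was -0.37, -0.40, -0.35 and -0.37 on the anxiety-susceptible arrays and -1.04, -1.02, -1.05 and -1.06 on the insusceptible arrays, against -1.06, -1.13, -1.09 and -1.06 on the control arrays. The anxiety-susceptible arrays lay above all 12 others. Depression-susceptible arrays 1 to 3 also lay above every control array, arrays 1 and 2 on slide 2 and array 3 on slide 1, while array 4 on slide 1 lay among the control arrays. The mean over samples was 0.71 above control on the log2 scale in anxiety-susceptible rats (SE 0.14), which is 1.64 times the control level. It was 0.16 above control in depression-susceptible rats (SE 0.12), 0.28 within slide 2 and 0.04 within slide 1. The insusceptible value was 0.04 above control (SE 0.14). In order, anxiety-susceptible came first, then depression-susceptible, insusceptible and control. The order of the last 3 was not tested, and the single insusceptible sample has no spread between slides of its own.

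Tmem212 encodes a membrane protein that is enriched in ependymal cells of mouse brain. Its brighter probe (target NM_001164438.1) read -2.09, -2.40, -2.59 and -2.45 on depression-susceptible arrays 1 to 4. Anxiety-susceptible arrays read -1.94, -1.86, -1.95 and -1.98 and insusceptible arrays -2.36, -2.55, -2.46 and -2.47, against -2.58, -2.39, -2.23 and -2.52 on control arrays. Only the anxiety-susceptible arrays stood clear of the rest, and the other groups overlapped. The difference from control was 0.05 in depression-susceptible rats (SE 0.13), 0.50 in anxiety-susceptible (SE 0.16) and -0.03 in insusceptible rats (SE 0.16), so the anxiety-susceptible level was 1.41 times that of control.

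The second Tmem212 probe (target NM_001164439.1) gave the same first place and another order below it. Its mean was -2.55 ± 0.06 on depression-susceptible, -1.74 ± 0.06 on anxiety-susceptible, -2.63 ± 0.10 on insusceptible and -2.36 ± 0.06 on control arrays (SD over 4 arrays each, which share slides). On this probe depression-susceptible arrays (-2.62 to -2.46) and insusceptible arrays (-2.77 to -2.56) lay below all control arrays (-2.42 to -2.29), which was not so on the brighter probe. The differences from control were -0.18 in depression-susceptible and -0.27 in insusceptible rats.

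Deup1 is needed to assemble the deuterosome, the structure on which multiciliated cells build their many centrioles. Its single spot carried the scanner software's mark for a non-uniform spot on all 8 arrays of day 1, which are the depression-susceptible and control arrays, and on none of the 8 arrays of day 2. Marked spots are left out here, so Deup1 has no level in those groups and no difference from control. Unmarked, it read -0.26, -0.27, -0.27 and -0.47 on anxiety-susceptible arrays 1 to 4 and -1.05, -1.13, -1.18 and -1.13 on insusceptible arrays. The anxiety-susceptible mean was 0.81 above the insusceptible mean on the log2 scale, and the arrays did not overlap. Each of these groups counts as a single sample on its own slide.

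The marked Deup1 spots were far brighter. They read 1.85, 0.24, 2.32 and 0.88 on depression-susceptible arrays 1 to 4 and 3.19, 3.30, 2.60 and 2.56 on control arrays. Arrays 1 and 2 of the depression-susceptible group share slide 2 and arrays 3 and 4 share slide 1, yet within both pairs the readings parted by over 1 log2 unit. The highest scaled signal of the group was 4.24 times the lowest, against 1.27 times for Drc12 on the same arrays. With marked spots kept, an alternative added after seeing the data, Deup1 differed from control by -1.59 in depression-susceptible rats, by -3.18 in anxiety-susceptible rats and by -3.99 in insusceptible rats. The deposited table of normalized values, which carries no marks, gave -1.39, -2.95 and -3.81. All of these differences rest on the 8 marked spots. Across the array, 15 of 24684 probes had every spot marked on all day 1 arrays and on no day 2 array, and 0 had the reverse. None of the 22 spots around Deup1 was marked on any array. What produced the marks was not tested.

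The genes whose values over the 6 samples lay closest to those of a member, after centring each gene on its own mean, were taken by the smallest root mean square difference. For Drc12 these were Cplx2 (0.053), which encodes a synaptic complexin, Eno4 (0.056), an enolase, and Spag16 (0.057), a central pair protein. For Tmem212 they were Bcl2l15 (0.044), Adrb3 (0.050), a beta-adrenergic receptor, and Spag16 (0.074). Spag16 was dim, at -6.33 to -5.63 over the 6 samples, and its probe was well above background on 13 of 16 arrays. The likeness covers 6 samples that share slides and is a description.

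Other genes of the motile cilium were then taken from a list by role, compiled with earlier results known and not selected by how each gene moved. Of its 148 genes besides the members, 86 were on the array and 79 passed the filter on dim probes, which asks for a probe well above background on at least 4 of 16 arrays. Each was tested in a fit with limma across 18270 probes, and a gene was called at a Benjamini-Hochberg adjusted p under 0.05. In bulk tissue, fewer ciliated cells and less RNA per cell cannot be told apart.

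In depression-susceptible rats 14 of the 79 genes were called lower than control and 3 higher. Of all 11321 genes with a value in this comparison, 3.28% were called lower and 4.58% higher, against 17.7% and 3.8% of the list. The list's median log2 difference was -0.12, against -0.06 for all genes, and was -0.15 within slide 1 and -0.11 within slide 2. All 17 called genes had the same sign on both slides, which a call made from these same slides largely implies. They kept their call and sign under quantile normalization and under normexp background correction. Without any 1 of the 4 day 1 samples, 3 to 4 genes were called, all of them falls.

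The 4 largest falls spanned the radial spoke, the microtubule doublets and dynein assembly. Rsph4a, a protein of the radial spoke head, had scaled log2 signals of -2.31 and -2.12 in depression-susceptible samples (slides 1 and 2), against -0.51 and -0.33 in control samples. It fell by 1.80 on the log2 scale (SE 0.12, limma adjusted p = 0.00637), to 0.288 times the control level. Cfap126, a protein inside the doublet microtubules, stood at -1.29 and -1.19, against 0.39 and 0.50 in control samples, and its difference was -1.68 (SE 0.09, limma adjusted p = 0.0045). The groups were apart on both slides for each of these genes.

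Cfap95, another doublet protein, read -3.97 and -4.19 in depression-susceptible samples, against -2.42 and -2.58 in control samples, a difference of -1.57 (SE 0.12). Dnaaf6, a factor that assembles axonemal dyneins in the cytoplasm, read -4.65 and -4.45, against -3.09 and -3.05 in control samples, a difference of -1.48 (SE 0.10). Further falls, with differences of -0.82 to -0.52, were those of Cfap300, Capsl, Ccdc40, Dynlrb2, Efhc2, Tp73, Cfap52, Mlf1 and Iqcg. Among them Tp73 encodes a transcription factor of multiciliated cells, at -1.91 and -1.86 in depression-susceptible samples, against -1.27 and -1.25 in control samples (difference -0.63, SE 0.08).

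The 3 rises were Iqub, a radial spoke protein (0.79, SE 0.09), and 2 components of the nexin-dynein regulatory complex, Drc7 (0.67, SE 0.08) and Drc1 (0.66, SE 0.08). Iqub read 0.30 and 0.37 in depression-susceptible samples, against -0.39 and -0.51 in control samples, so the groups did not overlap. None of these rises was called once any 1 of the day 1 samples was left out. Among the genes listed under the regulatory complex, to which Drc12 also belongs, 2 of 9 were called higher and 2 lower, Ccdc40 and Iqcg.

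In anxiety-susceptible rats 14 of the 79 genes were called higher than control and 15 lower, that is 17.7% and 19.0% of the list. Over all genes 8.63% were called higher and 20.4% lower, so the share called lower was near the background and the share called higher was above it. The list's median difference was -0.01, against -0.16 for all genes. Under normexp the calls were 30 higher and 13 lower of the list, beside 27.4% and 23.8% of all genes, and under quantile normalization 13 and 21, beside 10.2% and 18.7%. Normexp moved the median of all genes to -0.03 and that of the list to 0.21, and 11 of the rises and 9 of the falls held under both alternatives. Without any 1 of the day 1 samples, 5 to 6 genes were called higher and 3 to 5 lower.

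Of the genes listed under the nexin-dynein regulatory complex 4 of 9 were called higher (Drc1, Drc7, Efcab2 and Tcte1). Of those under the radial spokes 3 of 8 were called higher (Iqub, Cfap206 and Rsph10b). Under quantile normalization 2 and 3 of these were called, and a difference between roles was not tested. Drc1, which holds the base of the complex on the doublet, read 0.79 in the anxiety-susceptible sample, against -0.88 and -0.91 in control samples. It rose by 1.68 on the log2 scale (SE 0.09, limma adjusted p = 0.00711), or 3.20 times control. Drc7 rose by 1.44 (SE 0.09) and Iqub by 1.22 (SE 0.11). Nme7, a doublet protein, rose by 1.57 (SE 0.28), with control samples that themselves differed (-3.58 and -4.04). Spef2, a central pair protein needed for sperm tails and cilia in mouse, rose by 1.26 (SE 0.14).

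The largest fall was that of Dnai3, an intermediate chain of inner dynein arms. It read 1.33 in the anxiety-susceptible sample, against 3.54 and 3.28 in control samples, a difference of -2.08 (SE 0.26, limma adjusted p = 0.0172). Cfap126 differed by -1.08 (SE 0.11), Cfap95 by -1.05 (SE 0.15) and Cfap300, which takes part in dynein arm assembly, by -0.91 (SE 0.11). Cfap70 was called lower by 1.04 but higher by 0.43 under normexp, and its probe was well above background on 2 of 4 anxiety-susceptible arrays, so its direction is not settled.

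In insusceptible rats 29 of the 79 genes were called lower than control and 8 higher, 36.7% and 10.1% of the list. Over all genes 17.1% were called lower and 10.9% higher. The list's median difference was -0.32, against -0.10 for all genes. Normexp gave 24 lower and 23 higher, beside 21.1% and 29.5% of all genes, and quantile normalization 39 and 6, beside 16.9% and 10.5%. Normexp moved the median of all genes to 0.02 and that of the list to -0.04, and 21 of the falls and 4 of the rises held under both alternatives. Without any 1 of the day 1 samples, 3 to 4 genes were called higher and 11 to 12 lower.

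The genes with the largest falls were again doublet, dynein and spoke genes, and this comparison uses the same control samples. Dnai3 read 1.03 in the insusceptible sample and differed from control by -2.38 (SE 0.26, limma adjusted p = 0.0148), to 0.193 times the control level. Cfap126 read -1.88 and differed by -2.33 (SE 0.11). Dnaaf6 differed by -2.06 (SE 0.13), and by -0.79 under normexp, Cfap95 by -1.93 (SE 0.15) and Rsph4a by -1.91 (SE 0.14). Among the other ependymal cilia genes 6 of 8 were called lower, including Mlf1 (-1.36, SE 0.11) and Dynlrb2 (-1.18, SE 0.12), a light chain of dynein, and Tp73 differed by -0.61 (SE 0.09).

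Of the 8 rises in insusceptible rats, Nme7 (1.21, SE 0.28), Drc1 (1.18, SE 0.09) and Iqub (1.02, SE 0.11) had probes well above background on every array. Efcab2, a subunit of the nexin-dynein regulatory complex, and Rsph9, a radial spoke head protein, were also called higher, but their probes were dim. Efcab2 was well above background on 2 of 4 insusceptible and 1 of 4 control arrays, and Rsph9 on 2 arrays of each group, so the sizes of their differences are not settled. Under quantile normalization the call was lost for Nme7 (limma adjusted p = 0.0962) and Rsph9 (limma adjusted p = 0.0709).

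**Figure D2:**
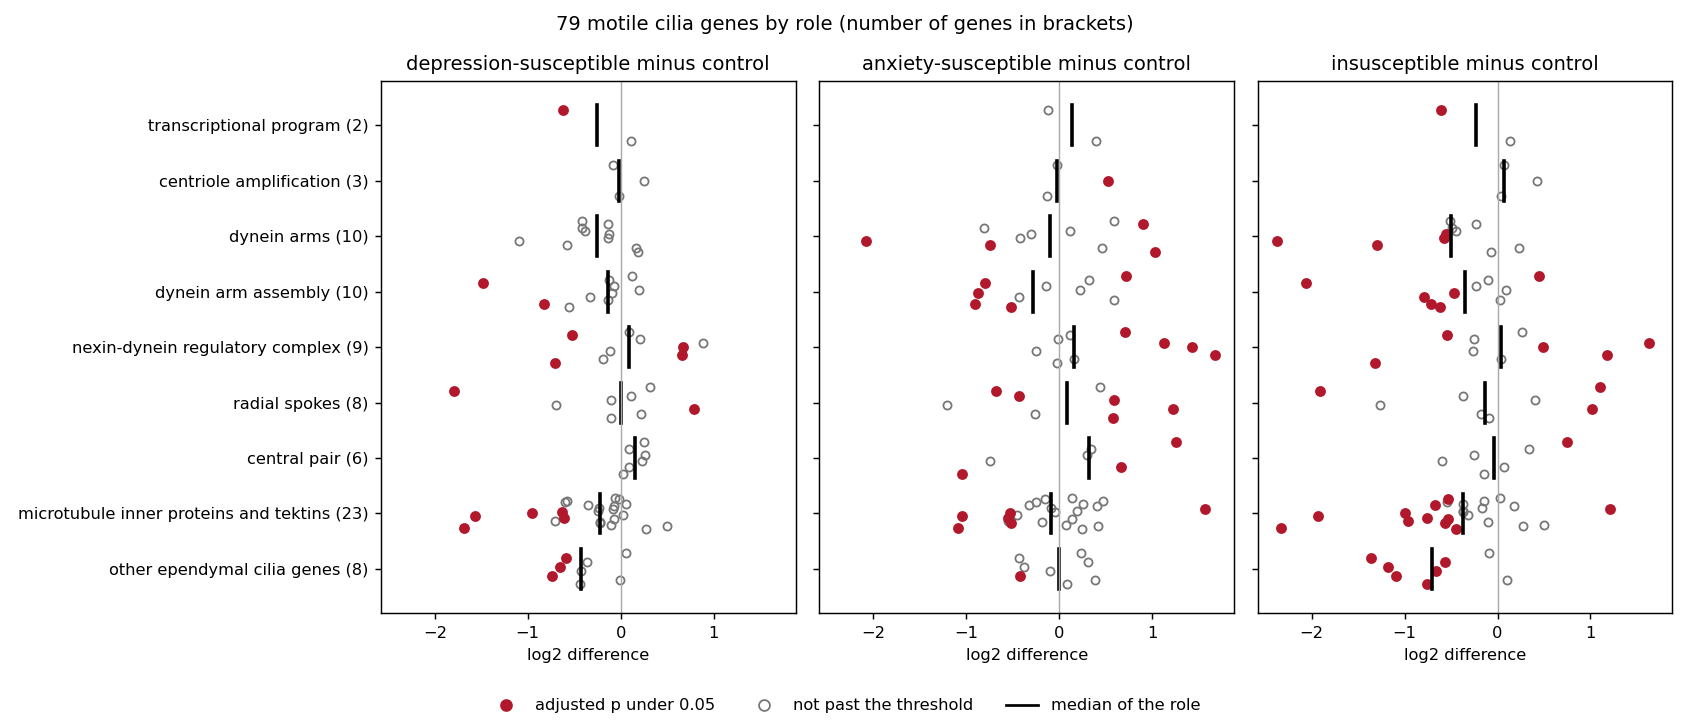
Log2 difference from control of 79 motile cilia genes in depression-susceptible, anxiety-susceptible and insusceptible rats, 1 point per gene in rows by role; filled points have an adjusted p under 0.05 and black bars are medians of a role. Falls outnumber rises in depression-susceptible (14 and 3) and insusceptible rats (29 and 8, but 24 and 23 under normexp). Anxiety-susceptible rats have 15 falls and 14 rises (13 and 30 under normexp).

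The brightest probes of each role did not all move. Of the transcription factors, Tp73 is given above and Rfx2, which drives cilia genes in mouse, differed by 0.11 in depression-susceptible rats, 0.40 in anxiety-susceptible rats and 0.13 in insusceptible rats, with adjusted p of 0.611, 0.139 and 0.556 (limma). In centriole amplification Cep63 was called higher in anxiety-susceptible rats (0.52, SE 0.10), and Cep41 differed by -0.02, -0.13 and 0.04 in the same order of groups, not past the threshold. The dynein arm gene Dnai1 differed by 0.16, 0.46 and 0.23, without a call, unlike Dnai3.

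The assembly factor Cfap298 differed by -0.55 (limma adjusted p = 0.0539), -0.52 and -0.62 in depression-susceptible, anxiety-susceptible and insusceptible rats, the last 2 past the threshold (the anxiety-susceptible one not under quantile normalization, limma adjusted p = 0.0961), and Dnaaf5 by -0.07, -0.14 and -0.23, with none. In the regulatory complex, Drc3 (-0.12, -0.24, -0.26) and Ccdc65 (-0.19, 0.16, 0.04) had no call. In the radial spokes, Rsph1 differed by -0.69, -1.20 and -1.26 with adjusted p of 0.18, 0.0579 and 0.0532 (limma), and Rsph10b by -0.11, 0.59 and 0.41, called in anxiety-susceptible rats.

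The central pair genes Spef1 (0.09, 0.35, 0.34) and Spag6l (0.27, 0.30, -0.25) were not called in any of the 3 comparisons. Among doublet proteins Cfap20 differed by -0.22, -0.51 and -0.57, with the last 2 called, and by 0.06, -0.01 and -0.06 under quantile normalization. Cfap52 fell in all 3 comparisons, by 0.61, 0.55 and 0.76 on the log2 scale (SE 0.07, 0.09 and 0.09).

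Between the stressed groups 0 of the 79 genes were called, by limma on the 6 samples. The comparison of depression-susceptible with insusceptible rats called 0.0883% of all genes, anxiety-susceptible with insusceptible 0.106%, and depression-susceptible with anxiety-susceptible 0.318%. At an unadjusted p under 0.05, 33 of the 79 genes were higher and 2 lower in anxiety-susceptible than in insusceptible rats, beside 3.82% and 7.08% of all genes. In depression-susceptible against anxiety-susceptible rats 31 were lower and 6 higher, beside 9.42% and 22% of all genes. In depression-susceptible against insusceptible rats 20 were higher and 8 lower, beside 17.7% and 11.5% of all genes. That last direction turned round under normexp, where limma called 5 higher and 24 lower, beside 9.15% and 25.1% of all genes, and the list's median difference was -0.14, against 0.11 without it. With each of the 16 arrays counted as a sample, limma called 51 of the 79 genes between anxiety-susceptible and insusceptible rats (34.5% of all genes), 58 between depression-susceptible and anxiety-susceptible rats (62.2%) and 47 between depression-susceptible and insusceptible rats (61.1%).

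The order of group means was described without a test. The anxiety-susceptible mean was above both other stressed means in 52 of the 79 genes (65.8%), against 19.9% of all 11321 genes. It was above the insusceptible mean in 65 (82.3%), against 39.8% of all genes, and the highest of the 4 groups in 34 (43.0%), against 14.7%. The insusceptible mean was the lowest of the 4 in 38 (48.1%), against 22.9%. The Drc12 and Tmem212 levels follow the first of these orders, but both were chosen with results of these arrays known, so this adds no support. The list's median difference between anxiety-susceptible and insusceptible rats was 0.32, and 0.42 and 0.22 under quantile normalization and normexp. Between depression-susceptible and insusceptible rats it was 0.11, and -0.14 under normexp. The orders were read without normexp, so the place of the insusceptible mean as the lowest is not settled.

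Markers of neighbouring cells were read beside these values. Of the choroid plexus list, 19 of 24 genes were tested, and 18 were called lower in depression-susceptible rats, 16 in anxiety-susceptible rats and 18 in insusceptible rats, with 0 higher by limma, also at an unadjusted p under 0.05. Their median log2 differences were -3.31, -1.79 and -3.25. Their summed level, in multiples of the array's 75th percentile, was 50 to 57.2 on depression-susceptible, 150 to 168 on anxiety-susceptible and 28.2 to 28.7 on insusceptible arrays, against 189 to 232 on control arrays. The sum is weighted towards the brightest genes. The mean of their scaled log2 signals was -2.121 to -2.013 on depression-susceptible and -0.539 to -0.499 on anxiety-susceptible arrays. It was -2.495 to -2.427 on insusceptible and 1.051 to 1.164 on control arrays. The insusceptible arrays were the lowest and the control arrays the highest, with no overlap between the arrays of different groups. The anxiety-susceptible and insusceptible arrays each count as a single sample, so their ranges do not show spread between rats.

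Folr1, a folate receptor of that epithelium, differed from control by -3.69, -1.81 and -3.62 in depression-susceptible, anxiety-susceptible and insusceptible rats, and Kcnj13, a potassium channel of its apical membrane, by -4.19, -1.79 and -4.81. Ttr, the transthyretin it secretes, differed by -1.50, 0.48 and -2.93. The part of choroid plexus tissue in the cilia gene differences was not tested.

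Of 10 ependymal markers that are not ciliary, 9 were tested. Aqp4 and S100b among them are also on the astrocyte list, so the levels of this list are not particular to ependymal cells. Mia was called higher in depression-susceptible (1.25), anxiety-susceptible (1.60) and insusceptible rats (1.44), and Cd24, a surface protein of ependymal cells, lower in anxiety-susceptible (-1.30) and insusceptible rats (-1.22). Their summed level was 90.0 to 121 on depression-susceptible, 111 to 115 on anxiety-susceptible, 90.7 to 102 on insusceptible and 110 to 153 on control arrays. The mean of their scaled log2 signals overlapped between all groups, at 1.30 to 1.44 on depression-susceptible, 1.27 to 1.33 on anxiety-susceptible, 1.29 to 1.34 on insusceptible and 1.23 to 1.42 on control arrays.

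Genes of intraflagellar transport and the BBSome, which serve motile and primary cilia alike, were called higher about as often as all genes. Of 23 tested, 1 was called higher in depression-susceptible rats, 2 in anxiety-susceptible rats and 2 in insusceptible rats, with 1 lower in the last, Ift27 (-0.94, SE 0.11). The shares of all genes in the same order were 4.58%, 8.63% and 10.9% higher and 3.28%, 20.4% and 17.1% lower. Arl13b, a small GTPase of the ciliary membrane, was called higher in all 3 comparisons (0.76, 0.79 and 0.64). The list's median differences were -0.02, -0.05 and -0.01. Of 9 astrocyte genes tested, 0, 1 and 1 were called in the same order, and Gfap, the astrocyte filament protein, differed by -0.38, -0.13 and -0.31, not past the threshold. Of the hippocampal neuron list 11 of 12 genes were tested, with a summed level of 66.5 to 72.1 on depression-susceptible, 61.7 to 63.6 on anxiety-susceptible, 62.0 to 64.2 on insusceptible and 71.3 to 82.0 on control arrays. Markers of the labelled tissue were thus present in all groups, and 2, 4 and 3 of the 11 were called lower in depression-susceptible, anxiety-susceptible and insusceptible rats (median differences -0.18, -0.45 and -0.23).

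Lists of other cells that the dissection could hold moved to different degrees. Over all genes 4.58%, 8.63% and 10.9% were called higher and 3.28%, 20.4% and 17.1% lower in depression-susceptible, anxiety-susceptible and insusceptible rats. Of 10 microglial genes 3, 5 and 4 were called lower in the same order of groups, with a summed level of 36.8 to 38.6 on depression-susceptible, 33.0 to 34.4 on anxiety-susceptible and 35.1 to 36 on insusceptible arrays, against 46.6 to 50.9 on control arrays. Of 7 red blood cell genes, which include those of hemoglobin, 5 were called higher and 1 lower in depression-susceptible rats (median difference 4.18), 2 lower in anxiety-susceptible rats (-0.46), and 4 higher and 1 lower in insusceptible rats (0.91). Their summed level was 24.4 to 27.4 on depression-susceptible, 0.955 to 1.01 on anxiety-susceptible and 2.52 to 2.62 on insusceptible arrays, against 1.40 to 1.44 on control arrays. The arrays of the 4 groups did not overlap, though anxiety-susceptible and insusceptible arrays each count as a single sample. Of 8 genes of meninges and fibroblasts 2, 1 and 4 were called higher, and 1 and 4 lower in depression-susceptible and anxiety-susceptible rats, with median differences of 0.37, -0.43 and 0.46. Of 10 oligodendrocyte genes 0, 1 and 2 were called lower and 0 higher, in the same order of groups. Of 8 genes of endothelium and pericytes 0, 0 and 2 were called higher and 0 lower. Of 7 striatal neuron genes 1, 3 and 3 were called lower and 0 higher. Of 5 genes of neural stem cells and neuroblasts 0, 1 and 1 were called higher, and 1 lower in each group. The part of these cells in the cilia gene differences was not tested.

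**Figure D3:**
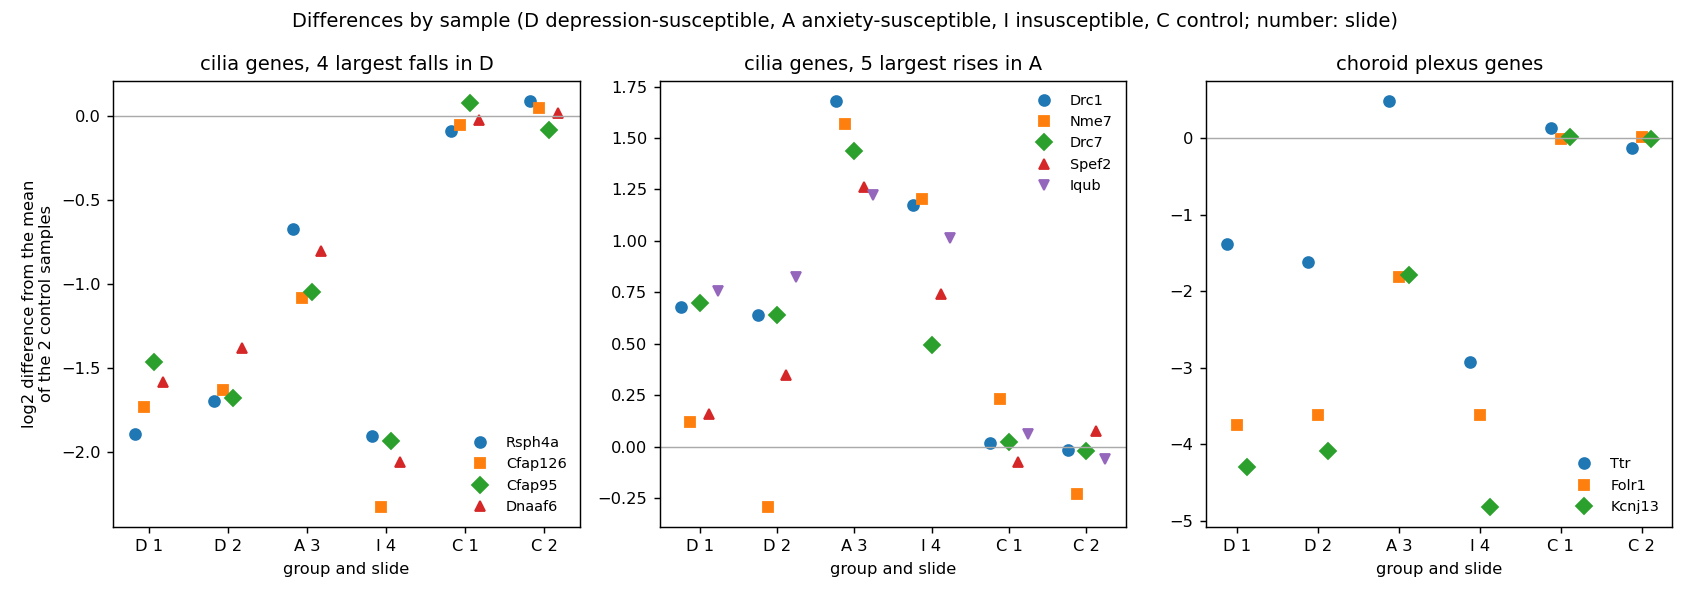
Log2 difference of each sample from the mean of the 2 control samples, for the 4 cilia genes with the largest falls in depression-susceptible rats, the 5 with the largest rises in anxiety-susceptible rats, and 3 choroid plexus genes; D is depression-susceptible, A anxiety-susceptible, I insusceptible and C control, with the slide number. In the left panel the anxiety-susceptible points lie between control and the other stressed groups; in the middle panel they are the highest (Drc1 at 1.68).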

How the data were processed

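Hippocampal RNA was measured on 16 single-colour arrays. Per the file headers, the deposited intensity values came from Agilent Feature Extraction, which had subtracted background and spatial trends within each array. The deposited value table holds log2 values normalized between arrays, as found on the values; no label names its software, and only an alternative used it.

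Control spots and spots marked as non-uniform or population outliers were left out, spots of a probe were averaged, and the log2 processed signal was lowered by each array's 75th percentile. Symbols came from RefSeq names (14274 of 15321 messenger RNA probes matched), with the brightest probe per gene. Of 24684 probes, 18270 were well above background on at least 4 arrays and entered one fit of 4 group means to 6 samples with limma 3.58.1 in R 4.3.3, which has 2 residual degrees of freedom. P-values were adjusted by Benjamini-Hochberg over those probes, two-sided, with a threshold of 0.05. 0 spots were saturated. The number of arrays limits the precision. The steps were tested on simulated data.

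The members, lists and naming rule were chosen with earlier results of these data known. Named genes are the 2 brightest per role and the 5 largest called rises and falls per comparison with control, of which 1 gene is not reported here. Other called genes are named to spell out a count, after their values were seen. Normexp (offset 50) used the median spot signal, since mean signal columns were not used here, and its parameters were fitted on spots not below background. Replicate numbers did not pair arrays: same-numbered depression-susceptible and control arrays, which lie on different slides, deviated oppositely (correlations -0.54 to -0.42).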

Additional observations from a re-analysis of the deposited data

Results flagged for a closer look

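Among 14 groups of 4 unmarked arrays of the members' probes, 1 array stood apart. Deup1 on anxiety-susceptible array 4 read -0.47, while the other 3 arrays of that group lay between -0.27 and -0.26. Chance alone marks about 1 in 20 such groups, so 1 of 14 is no more than chance gives. The value still lay above every insusceptible array (-1.18 to -1.05).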

How the results depend on the processing

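The count of the 79 motile cilia genes called depended on how samples were counted and on the background correction. Against control, 17 genes were called in depression-susceptible rats, 29 in anxiety-susceptible rats and 37 in insusceptible rats. With 16 arrays as samples these counts were 46, 61 and 60, and with the replicate block on 16 arrays 43, 58 and 60. With slide as a random block over 16 arrays they were 48 in depression-susceptible and 45 in anxiety-susceptible rats, and slide as a fixed block, possible only for depression-susceptible rats, gave 34. No filter on dim probes gave 8 and 13. Leaving out 1 of the 4 day 1 samples gave 3 to 4, 8 to 11 and 14 to 15. Fewer samples leave 1 residual degree of freedom.

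Between stressed groups, where 0 genes were called, depression-susceptible against insusceptible gave 47 with 16 arrays and with the replicate block, 29 under normexp (5 higher and 24 lower), 7 under quantile normalization, 4 without the filter and 34 with slide as a random block. Anxiety-susceptible against insusceptible gave 51 with 16 arrays, 48 with the replicate block, 33 with slide as a random block, and 1 with the deposited table and with marked spots kept. Depression-susceptible against anxiety-susceptible gave 58 with 16 arrays, 57 with the replicate block, 47 under normexp, 16 under quantile normalization, 13 with the deposited table, 19 for probes well above background on all 16 arrays, 44 with slide as a random block and 1 with marked spots kept. Leaving out 1 sample gave 0 in all 3. Causes were not tested.

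The Drc12 difference from control stayed above 0 in depression-susceptible and anxiety-susceptible rats in all alternatives run, and in insusceptible rats it was -0.02 under quantile normalization, against 0.04. The Tmem212 difference in depression-susceptible rats was -0.18 on the dimmer probe, and in insusceptible rats -0.23 under quantile normalization, -0.19 in the deposited table and -0.27 on the dimmer probe, against 0.05 and -0.03. Leaving out 1 sample gave -0.09 to 0.18 and -0.08 to 0.02. Deup1 has no value against control except with marked spots kept (-1.59, -3.18 and -3.99 in the groups in that order) or in the deposited table (-1.39, -2.95 and -3.81). Leaving out the single anxiety-susceptible or insusceptible sample was not run, since it removes the group. The replicate numbers do not pair arrays.

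Counts over all probes moved in the same way. For depression-susceptible, anxiety-susceptible and insusceptible rats against control, 1666, 5402 and 5311 probes were called, and 8940, 13001 and 13228 with 16 arrays, 8390, 12656 and 12859 with the replicate block and 10239, 10446 and 10574 with slide as a random block. Slide as a fixed block gave 6315 for the first, no filter 969 and 2343 for the first and second, and normexp 10198 and 10151 for the second and last. Leaving out 1 sample gave 330 to 718, 1282 to 1421 and 1470 to 1809.

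For depression-susceptible against insusceptible, anxiety-susceptible against insusceptible and depression-susceptible against anxiety-susceptible rats, 13, 14 and 38 probes were called, and 11174, 6594 and 11295 with 16 arrays, 10646, 5788 and 10805 with the replicate block and 7416, 2027 and 7905 with slide as a random block. Quantile normalization gave 734, 59 and 1695, the deposited values 77, 48 and 1272, no filter 3970, 0 and 6, and probes above background on all 16 arrays 8, 30 and 1270. Normexp gave 7451 for the first and 7493 for the last. Leaving out 1 sample gave 0 in the first 2 comparisons and 0 to 6 in the last.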
